A study of Rattus norvegicus with 458 samples.

Results

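The miR-23, miR-27 and miR-24 clusters are a pair of miRNA gene groups, the a locus and the b locus, each with a miR-23, a miR-27 and a miR-24 hairpin in close succession. Their entries were taken from the table of counts per miRNA name as every name in which a part was miR-23a, miR-23b, miR-27a, miR-27b or miR-24 with any arm suffix, leaving out names of precursor fragments. This gave 21 of 7534 names, of which 11 were single names and 10 were composite names given to reads that matched more than 1 miRNA. The libraries came from naïve Sprague Dawley rats of 12 to 13 weeks, 5 males (rats 2 to 6) and 5 females (rats 7 to 11), with no treatment, allele or agent in any of them. Each rat gave a library of Adrenal, Brainstem, Cerebellum, Cerebrum, Cortex and Medulla (of the kidney, per the study's methods), Kidney, Duodenum, Jejunum, Ileum, Heart, Hippocampus, Liver, Muscle - Biceps, Muscle - Soleus, Pancreas, Stomach_Glandular, Stomach_Non-Glandular and WholeBlood, and Ovary, Uterus and Testicle came from the 5 rats of their sex. The dorsal root ganglion (DRG) was represented by 10 technical libraries of 2 pools, 1 of 5 female and 1 of 5 male rats, which the labels do not tie to the numbered rats. Per the study's methods its RNA came from another laboratory, which cannot be told apart from the tissue, and DRG was described without a test on the ratios. Small RNA sequencing of total RNA from whole pieces of tissue was the only assay, so that fewer cells of a type and less RNA per cell cannot be told apart.

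An miRNA is cut from a hairpin in a longer transcript, and the strand that is kept pairs with messenger RNAs through its seed, bases 2 to 8, to lower their translation and stability. The 3 hairpins of a locus lie in 1 transcript, so that their miRNAs are made together, and the a and b loci are copies of each other that arose by duplication. miR-23 is known for repressing glutaminase, miR-27 for repressing the adipogenic receptor PPARG and other genes of lipid metabolism, and miR-24 for repressing regulators of the cell cycle and the histone variant H2AX. The clusters have been studied most in endothelium, heart and muscle. Each hairpin can yield a 5p and a 3p miRNA, and the 3p miRNA is the abundant one here.

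The a locus lies on the minus strand at chr19:40859455-40859843 of GRCr8 and holds Mir23a (chr19:40859769-40859843), Mir27a (chr19:40859603-40859689) and Mir24-2 (chr19:40859455-40859562) within 389 bases, where the RefSeq gene table places no other gene. The b locus lies on the minus strand at chr17:1818669-1819482 and holds Mir23b (chr17:1819386-1819482), Mir27b (chr17:1819147-1819243) and Mir24-1 (chr17:1818669-1818736) within 814 bases, overlapping the spans of Fancc, Aopep and Mir3074. The table gives gene spans and not exons. The RefSeq mature sequences below are shown because the whole comparison of the loci rests on 1 base of miR-23 and 1 base of miR-27, with the seed in capitals.
miR-23a-3p (a locus): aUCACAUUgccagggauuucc
miR-23b-3p (b locus): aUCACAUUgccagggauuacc
miR-27a-3p (a locus): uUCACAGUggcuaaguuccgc
miR-27b-3p (b locus): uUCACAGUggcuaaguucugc
miR-24-3p (both loci): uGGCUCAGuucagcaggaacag
miR-24-2-5p (a locus): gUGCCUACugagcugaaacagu
miR-24-1-5p (b locus): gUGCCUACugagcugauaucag
miR-27a-5p (a locus): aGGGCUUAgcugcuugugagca
miR-27b-5p (b locus): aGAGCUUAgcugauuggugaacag
miR-23a-3p and miR-23b-3p share their seed and differ by U19A, counted from 1 at the 5′ end with the base of the a member first. miR-27a-3p and miR-27b-3p also share a seed and differ by C19U. miR-24-3p is the same 22 bases from both loci and cannot be divided between them, while its 5p partners differ in sequence and can. The 10 single names with a RefSeq entry are those above and miR-23b-5p, and miR-23a-5p is named without a sequence.

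The members held 23510701 of 1050166585 counts (2.24%) over the 215 libraries, and 98.6% of these lay on the names miR-23a-3p, miR-23b-3p, miR-27a-3p, miR-27b-3p and miR-24-3p, called the 3p members below. miR-27b-3p alone had 20147017 counts. It was followed by miR-27a-3p with 1063649, miR-23b-3p with 909871, miR-24-3p with 553576 and miR-23a-3p with 496495 counts. The 5p names were far lower, with 148487 counts of miR-24-2-5p, 24510 of miR-27b-5p, 6876 of miR-24-1-5p, 4514 of miR-27a-5p, 203 of miR-23b-5p and 116 of miR-23a-5p. Reads that end before the base that differs carry a composite name. The composite of miR-27a-3p and miR-27b-3p had 140503 counts and took 0.25% to 1.16% of the miR-27 counts of a library. That of miR-23a-3p and miR-23b-3p had 14114 counts and took 0.361% to 2.58% of the miR-23 counts, and the other 8 composites had 643 counts or fewer each.

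Library totals ran from 376401 to 17725805 counts with a median of 4816409. In 10 libraries the profile over all miRNAs was nearer to another tissue than to its label, namely 4 of duodenum, 3 of hippocampus and 1 each of ovary, adrenal and uterus, and values that rest on them are given with and without them. RNA integrity numbers (RIN, a scale of RNA quality that ends at 10) were 4.9 to 6.8 in the pancreas, where every library came from re-extracted RNA, and 8.4 to 9.1 in the non-glandular stomach. The pancreas libraries held 8114 to 15689 counts-per-million (CPM, relative to the counts of all names in the library) of the summed pancreas markers miR-216a-5p, miR-216b-5p and miR-217-5p, against 0 to 1.70 CPM in the non-glandular stomach. miR-375, the fourth marker of that list, was not a name of the table. The squamous epithelium markers miR-205 and miR-203a-3p summed to 1658 to 3294 CPM in the non-glandular stomach, whose lining is a squamous epithelium, and to 305 to 635 CPM in the pancreas. The non-glandular stomach had the highest median of this sum, at 2713 CPM. Its range was reached by libraries of ileum (up to 1995), jejunum (1815), duodenum (1842) and glandular stomach (2241).

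The first question was how far the balance of the a and b loci differs between tissues. It was measured in each library as the log2 ratio of the count of the a member to that of the b member, with 0.5 added to each, so that negative values mean more of the b member. The mean of the miR-23 and miR-27 log2 ratios of a library is called the locus ratio. A fold given for it is the geometric mean of the miR-23 and miR-27 folds, and not the fold of the summed counts. As both counts come from the same library, the ratio needs no scaling between libraries. The ligases that join adaptors to small RNAs favour some sequences and ends over others, so that a fold between names is one of reads and not of molecules, and its part in the ratios was not tested. The pancreas had the lowest locus ratio of all tissues and the soleus the highest, and the locus ratio was negative in all 215 libraries. Among all pairs of 22 tissues, 181 (78.4%) differed in the locus ratio, 171 (74.0%) in the miR-23 ratio and 192 (83.1%) in the miR-27 ratio (two-sided permutation tests, Benjamini-Hochberg adjusted p of 0.05 or less over all pairs). Without the libraries nearer to another tissue, 200 pairs differed in the locus ratio, 189 in the miR-23 ratio and 203 in the miR-27 ratio.

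In the pancreas the locus ratio was -4.23 ± 0.14 (SD, n = 10), which is 18.8-fold more of the b members as the geometric mean of the miR-23 and miR-27 folds. The brain tissues and whole blood came next. The cerebellum had a locus ratio of -3.80 ± 0.06, the brainstem -3.57 ± 0.14, whole blood -3.34 ± 0.35 and the cerebrum -3.14 ± 0.08. The hippocampus had -3.21 ± 0.67, or -3.55 ± 0.09 without its 3 libraries that are nearer to another tissue. The female pool of DRG averaged -3.28 and the male pool -3.17 over 5 technical libraries each.

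Liver, kidney and intestine were intermediate. The duodenum had a locus ratio of -3.08 ± 0.51, and the spread fell to 0.10 at the same mean of -3.08 without 4 libraries. The liver had -3.04 ± 0.17, the kidney cortex -2.87 ± 0.22, the jejunum -2.82 ± 0.22, the kidney -2.64 ± 0.15 and the ileum -2.40 ± 0.12. The kidney medulla was at -2.16 ± 0.07, well above the cortex of the same organ.

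The reproductive tissues, stomach, adrenal and striated muscle had the highest values, except that with all libraries the kidney medulla, at -2.16, lay above the means of uterus and ovary. The ovary had a locus ratio of -2.31 ± 0.55 (n = 5, or -2.07 without 1 library), the uterus -2.24 ± 0.49 (n = 5, or -2.03 without 1 library) and the testicle -1.94 ± 0.11 (n = 5). The biceps had -2.08 ± 0.13, the non-glandular stomach -2.07 ± 0.16, the glandular stomach -1.96 ± 0.27, the heart -1.90 ± 0.06 and the adrenal -1.85 ± 0.59 (-1.67 without 1 library). The soleus, a slow postural muscle, was at -1.43 ± 0.04, or 2.69-fold more of the b members as the geometric mean of the miR-23 and miR-27 folds. There only miR-27b-3p exceeded its a member, while the miR-23 ratio was positive, at 0.43. Of the 21 steps between neighbours in this order, 4 passed the test, namely pancreas to cerebellum, cerebellum to brainstem, kidney to ileum and adrenal to soleus.

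**Figure D1:**
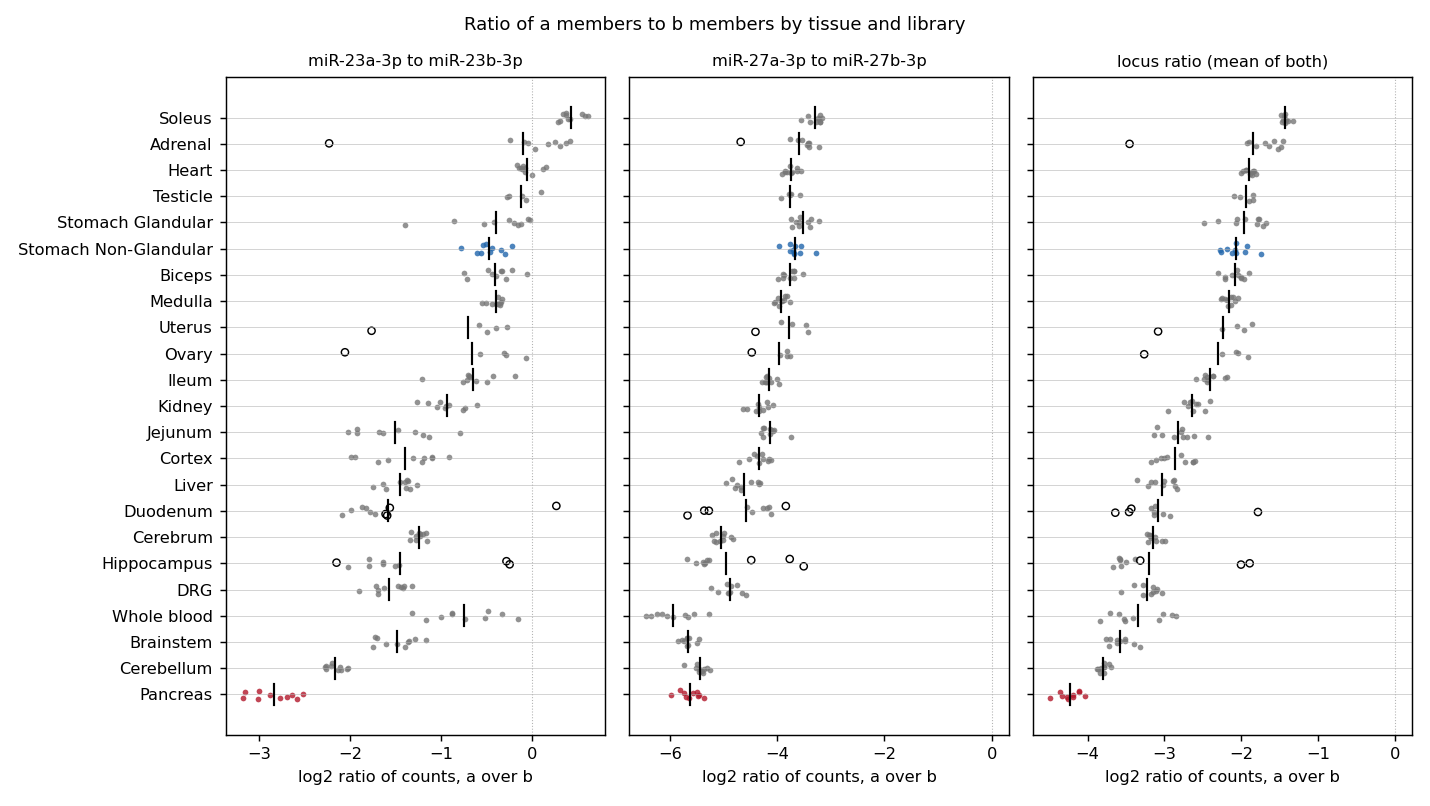
Log2 ratio of the a to the b member for miR-23, miR-27 and their mean (x axes) in each tissue (y axis, ordered by the locus ratio), with 1 point per library, a black bar at the mean and open circles for libraries whose profile is nearer to another tissue. The pancreas (red) is lowest for miR-23 and the locus ratio, and the non-glandular stomach (blue) lies near the top, at a mean locus ratio of -2.07.

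The miR-23 and miR-27 ratios had different levels and did not order the tissues alike, most of all in whole blood. The jejunum mean, for example, was below the cerebrum mean for miR-23 (-1.51 against -1.24) and above it for miR-27 (-4.13 against -5.04). miR-23a-3p and miR-23b-3p were near balance in many tissues. The miR-23 ratio was 0.43 ± 0.12 in the soleus (0.28 to 0.62, all 10 libraries above 0), -0.05 ± 0.11 in the heart and -2.16 ± 0.09 in the cerebellum. miR-23a-3p exceeded miR-23b-3p in 21 of 215 libraries, of which 10 were soleus, 6 adrenal and 3 heart. By contrast, miR-27a-3p exceeded miR-27b-3p in 0 of 215 libraries. The miR-27 ratio ran from -5.94 ± 0.38 in whole blood to -3.28 ± 0.13 in the soleus, or from 61.3-fold to 9.74-fold more miR-27b-3p.

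Whole blood had the lowest mean miR-27 ratio and was lower than 20 of 21 tissues. The exception was the brainstem, where the difference of 0.271 did not pass (adjusted p = 0.0525, permutation test). The miR-23 ratio of whole blood, at -0.75 ± 0.37, was in the middle of the order. Within the b locus, the log2 ratio of miR-27b-3p to miR-23b-3p was 6.43 ± 0.32 in whole blood, and tissue means elsewhere ran from 3.69 in the jejunum to 4.95 in the kidney medulla. Every whole blood library, at 5.99 or higher, lay above every library of the other tissues. Within the a locus, the log2 ratio of miR-27a-3p to miR-23a-3p was highest in the pancreas, at 1.84 ± 0.13 (1.62 to 2.02), against 1.26 ± 0.12 in the non-glandular stomach and 0.51 in DRG. Across the 23 tissue means the miR-23 and miR-27 ratios had a Pearson r of 0.770, and of 0.889 over the 22 means without whole blood, given as a description since the names share libraries and depth.

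The pancreas is an exocrine gland of acinar cells with small endocrine islets. Its locus ratio ran from -4.49 through a median of -4.22 to -4.03, and no library overlapped with a library of the 21 other tissues in the test. The locus ratio was lower than in each of them (adjusted p of 7.29e-05 for tissues with 10 libraries, and 0.000566 by exact permutation for those with 5). The smallest difference was to the cerebellum, at 0.434 ± 0.0465 (SE). The miR-23 ratio of the pancreas ran from -3.18 through -2.82 to -2.51, with a mean of -2.84 ± 0.24, or 7.16-fold more miR-23b-3p. It too was lower than in all 21 tissues with no overlap, and the cerebellum was again nearest, at a difference of 0.681 ± 0.0809 (SE, adjusted p = 9.12e-05, permutation test).

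For miR-27 the pancreas did not stand alone. Its ratio ran from -5.98 through -5.61 to -5.37, with a mean of -5.62 ± 0.19, or 49.3-fold more miR-27b-3p. This was lower than in 19 tissues and higher than in whole blood by 0.313 ± 0.134 (SE, adjusted p = 0.0385, permutation test). Against the brainstem, at -5.67 ± 0.12, the difference was 0.0423 ± 0.0700 (SE, adjusted p = 0.583, permutation test), within the spread of the libraries.

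The non-glandular stomach is the forestomach of the rat, lined by squamous epithelium over smooth muscle. Its miR-23 ratio ran from -0.78 through -0.48 to -0.22, with a mean of -0.47 ± 0.17, or 1.39-fold more miR-23b-3p. Its miR-27 ratio ran from -3.97 through -3.69 to -3.28, with a mean of -3.67 ± 0.18, or 12.7-fold more miR-27b-3p. The locus ratio ran from -2.27 through -2.08 to -1.75, with a mean of -2.07 ± 0.16, or 4.20-fold more of the b members as the geometric mean of both folds. It was higher than in 12 of 21 tissues and lower than in the heart (by 0.172 ± 0.0549 SE, adjusted p = 0.00854) and the soleus (by 0.640 ± 0.0528 SE, adjusted p = 7.29e-05), all by permutation tests.

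With all libraries, the other 7 tissues did not differ from the non-glandular stomach past the threshold. The differences in the locus ratio, non-glandular stomach minus the other tissue, were 0.0152 ± 0.0648 (SE) to the biceps, 0.0910 ± 0.0558 to the kidney medulla, -0.107 ± 0.0988 to the glandular stomach, -0.127 ± 0.0712 to the testicle, 0.175 ± 0.225 to the uterus, -0.223 ± 0.193 to the adrenal and 0.239 ± 0.250 to the ovary. The standard errors for uterus, adrenal and ovary are wide, and each of these tissues holds 1 library that is nearer to another tissue. Without that library the locus ratio ran from -1.92 to -1.46 in the adrenal and from -2.26 to -1.91 in the ovary. The mean of the non-glandular stomach was -2.07. For the miR-23 ratio the non-glandular stomach was higher than in 10 tissues and lower than in 3, and for the miR-27 ratio higher than in 14 and lower than in 1, the soleus.

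Set against each other within the same rats, the pancreas had a locus ratio lower than the non-glandular stomach by 2.16 ± 0.208 (SD of the differences, n = 10), in 10 of 10 rats (exact sign-flip test, p = 0.00195, the smallest that 10 rats allow). Females and males differed by 0.147 in this contrast (exact permutation test, p = 0.294). The libraries were sequenced on several flow cells, and 1 of these carried every library. On that flow cell alone the locus ratio was -4.19 in the pancreas and -2.07 in the non-glandular stomach, and on the other flow cells -4.24 and -2.07.

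Both sexes were profiled in 19 tissues, and the locus ratio differed between them in 0 of 19 (exact permutation tests of 5 against 5, lowest adjusted p = 0.0754). The smallest p that this test allows is 0.00794, which adrenal and cerebellum reached. After adjustment over 19 tissues a call needs several tissues at or near that floor, so 0 calls do not show that the sexes are alike. At an unadjusted p under 0.05 there were 5, namely adrenal, cerebellum, kidney, liver and whole blood, all with the lower mean in females. The widest gap without a library nearer to another tissue was in whole blood, at -3.61 ± 0.16 in females and -3.07 ± 0.26 in males. In the liver the means were -3.17 ± 0.13 and -2.90 ± 0.07. The pancreas had -4.25 ± 0.10 and -4.22 ± 0.18, and the non-glandular stomach -2.16 ± 0.13 and -1.98 ± 0.14.

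A ratio does not show which of its members moved, so levels were read as CPM. CPM values of a name were compared between tissues, and values of different names are reads subject to the same ligase preference. In the pancreas miR-27b-3p ran from 45760 through a median of 50600 to 55878 CPM, with a mean of 50396 ± 3063, ranked 2 of 23 tissues after DRG at 67382. miR-23b-3p ran from 1490 through 2116 to 2819 CPM, with a mean of 2085 ± 463, also ranked 2 after DRG at 4762. The a members were lower in the order of tissues. miR-27a-3p had 1031 ± 153 CPM (726 to 1213) and ranked 9, and miR-23a-3p had 288 ± 47.1 CPM (227 to 370) and ranked 19. miR-24-3p, from both loci, had 530 ± 114 CPM (408 to 732) and ranked 9.

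In the non-glandular stomach the 3p members ranked 11 to 20 of 23 by CPM. miR-27b-3p had 11744 ± 2433 CPM (7969 to 16151), miR-23b-3p 534 ± 98.0, miR-27a-3p 922 ± 181, miR-23a-3p 384 ± 73.4 and miR-24-3p 321 ± 63.5 CPM. A single smooth muscle miRNA, miR-143-3p, took 84.1% of all counts there (77.0% to 87.9%), against 1.74% (1.37% to 2.23%) in the pancreas. With miR-143-3p left out of the total, the non-glandular stomach had 73648 CPM of miR-27b-3p, 3369 of miR-23b-3p, 5820 of miR-27a-3p, 2422 of miR-23a-3p and 2020 of miR-24-3p, the highest of 23 tissues for 4 of these and rank 2 for miR-23b-3p. The pancreas then ranked 4 for miR-27b-3p, at 51286 CPM, and 4 for miR-23b-3p, at 2122. The statement that a member is high or low in the non-glandular stomach thus depends on the total it is divided by, whereas the a to b ratio does not.

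Whole blood had the lowest mean CPM of each 3p member, at 24.2 for miR-23a-3p, 39.5 for miR-23b-3p, 59.1 for miR-27a-3p, 3414 for miR-27b-3p and 31.4 for miR-24-3p. The soleus had the highest miR-27a-3p, at 2893 ± 289 CPM, and ranked 2 for miR-23a-3p, at 1366 (1081 to 1756), after DRG at 1607.

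**Figure D2:**
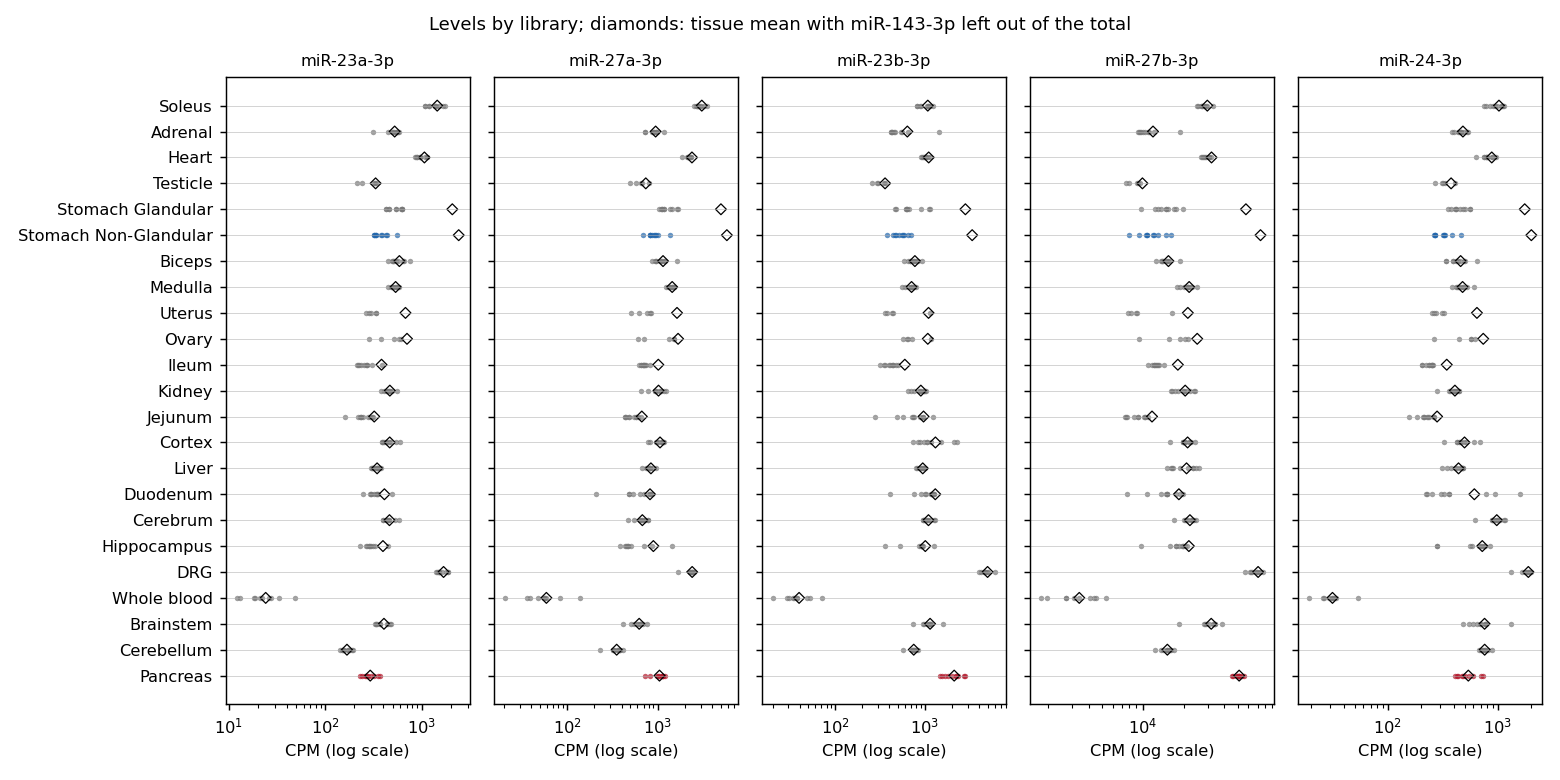
Level of the 5 3p members in CPM (x axes, log scale) in each tissue (y axis), with 1 point per library and a diamond at the tissue mean when miR-143-3p is left out of the total. Pancreas is second to DRG for miR-23b-3p and miR-27b-3p, and the diamond of the non-glandular stomach lies far to the right of its points, at 73648 against 11744 CPM for miR-27b-3p.

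Each tissue was next set against the mean of the other 22 with edgeR on the counts of all names (quasi-likelihood test, upper quartile scaling, 1641 names tested). Of the 115 tests of the 3p members in 23 tissues, 76 passed an adjusted p of 0.05, with 43 higher and 33 lower. Over all names and tissues the same rule called 34.7% of tests, 23.4% higher and 11.3% lower. All 5 were higher in the non-glandular stomach (22.1% of all names were called higher there), the glandular stomach (19.2%) and the heart (28.9%). All 5 were lower in brainstem, cerebellum, cerebrum, hippocampus and testicle, except that with DESeq2 miR-24-3p was called higher in the cerebrum (0.28, and 0.12 with TMM scaling) and was at 0.02 in the cerebellum. The share of all names called lower was 30.1% in brainstem, 19.2% in cerebellum, 27.7% in cerebrum, 11.8% in hippocampus and 16.8% in testicle. The kidney medulla, kidney, soleus and uterus had 4 members higher each, against 27.3%, 23.8%, 19.3% and 15.2% of all names, but with DESeq2 3 of those of the kidney and miR-24-3p of the kidney medulla had the opposite sign. In the liver miR-23b-3p (0.61) and miR-27b-3p (0.58) were called higher by edgeR and lower by DESeq2 (-0.39 and -0.43).

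In the pancreas the b members rose, and the a members did not pass the test with upper quartile scaling and all libraries. The log2 fold change was 1.75 ± 0.13 (SE, adjusted p = 6.46e-27) for miR-27b-3p and 1.63 ± 0.15 (adjusted p = 5.86e-20) for miR-23b-3p. For miR-27a-3p it was 0.41 ± 0.19 (adjusted p = 0.0722) and for miR-23a-3p -0.37 ± 0.19 (adjusted p = 0.105). With TMM scaling miR-27a-3p was called higher (0.40) and miR-23a-3p lower (-0.38), and DESeq2 called miR-23a-3p lower (-0.48). Both a members were also called, in these directions, with upper quartile scaling when the libraries nearer to another tissue were left out. miR-24-3p was higher by 0.33 ± 0.14 (adjusted p = 0.0462), a call lost with DESeq2, without the filter on low counts and without each of 7 of the 10 rats. With 3 members higher (2 without miR-24-3p) and 0 lower, the background in the pancreas was 29.5% of names higher and 13.3% lower, and the median over all names was 0.17 (0.10 with TMM scaling, 0.05 with DESeq2).

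The 5p names of the pancreas did not follow their 3p partners. miR-27b-5p fell by 0.41 on the log2 scale (SE 0.17, adjusted p = 0.0428) beside the rise of miR-27b-3p from the same hairpin. miR-24-2-5p fell by 0.88 (SE 0.18, adjusted p = 2.13e-05) and miR-24-1-5p by 0.60 (SE 0.22, adjusted p = 0.0172). miR-27a-5p was at -0.40 ± 0.30 (adjusted p = 0.313). The counts behind the 5p names are low, with 3 to 20 counts of miR-24-1-5p and 30 to 107 of miR-27b-5p in a pancreas library.

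In the non-glandular stomach the 3p members rose, with the a members ahead of the b members, and so did the 5p names of miR-24 and miR-27, where miR-27a-5p stood behind miR-27b-5p. The log2 fold change was 1.95 ± 0.16 for miR-27a-3p, 1.80 ± 0.15 for miR-23a-3p, 1.29 ± 0.16 for miR-23b-3p and 1.23 ± 0.14 for miR-27b-3p, with adjusted p of 2.85e-14 for miR-27b-3p, 7.94e-13 for miR-23b-3p and lower for both a members. miR-24-3p rose by 1.32 ± 0.13 (adjusted p = 7.96e-19), miR-24-2-5p by 1.90 ± 0.14, miR-24-1-5p by 1.75 ± 0.17, miR-27b-5p by 1.26 ± 0.14 and miR-27a-5p by 0.91 ± 0.26 (adjusted p = 0.00299). The background there was 22.1% of names higher and 9.02% lower, and the median over all names was 0.12, -0.08 with TMM scaling and 0.35 with DESeq2. The 3p members were also above 0 with TMM scaling and with DESeq2, but by CPM of all counts they ranked 11 to 20.

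Whole blood had 1 member higher and 4 lower, against a background of 36.1% higher and 16.6% lower. miR-23b-3p was at -1.59 ± 0.21, miR-23a-3p at -1.34 ± 0.21, miR-27a-3p at -1.23 ± 0.23 and miR-24-3p at -1.10 ± 0.16. miR-27b-3p was at 0.40 ± 0.15 (adjusted p = 0.0208) with upper quartile scaling, at -0.93 with TMM scaling and at -0.37 with DESeq2, both of the last called lower. In the soleus miR-23a-3p rose by 1.80 ± 0.15 and miR-27a-3p by 1.75 ± 0.17, while miR-27b-3p rose by 0.65 ± 0.15 and miR-23b-3p was at 0.34 ± 0.17 (adjusted p = 0.137). In the cerebellum miR-27a-3p fell by 2.48 (SE 0.25) and miR-23a-3p by 2.43 (SE 0.23), and miR-27b-3p fell by 1.35 (SE 0.18) and miR-23b-3p by 1.17 (SE 0.20). Between females and males within a tissue, edgeR called 0 of 95 member tests (4 at an unadjusted p under 0.05, and 2 called with TMM scaling and 3 with DESeq2), against 0.901% of tests over all names.

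miR-24 gives a readout of the loci that the 3p ratios do not use. The log2 ratio of miR-24-2-5p, from the a locus, to miR-24-1-5p, from the b locus, was positive in every tissue. It was lowest in the cerebellum, at 2.12 ± 0.22, then 2.91 ± 0.24 in the brainstem and 3.63 ± 0.33 in the cerebrum. The hippocampus had 3.87 ± 0.93, and 3.31 without 3 libraries. The pancreas had 4.28 ± 0.34, the non-glandular stomach 4.68 ± 0.39, the heart 5.25 ± 0.26, the biceps 5.38 ± 0.36 and the soleus 6.02 ± 0.37.

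The soleus was thus at the top of both readouts, and the brain tissues were low in the locus ratio and at the bottom of the 5p ratio. In the miR-23 ratio alone the brainstem (-1.48), hippocampus (-1.45) and cerebrum (-1.24) lay near the duodenum (-1.58), jejunum (-1.51) and liver (-1.45). The hippocampus and duodenum means include libraries nearer to another tissue. Hippocampus libraries ran from -2.15 to -0.25, and the duodenum library of rat 11 was at 0.27, against -2.09 to -1.56 in the others. The pancreas, lowest in the locus ratio, was not at the bottom of the 5p ratio. Its 5p ratio ran from 3.76 to 4.91, above every cerebellum and brainstem library (highest 2.42 and 3.35). The pancreas value rests on the low counts of miR-24-1-5p given above for its libraries. Whole blood is left out because its summed 5p counts were below 20 in some libraries, as low as 3 counts of miR-24-2-5p. Over 22 tissue means the 5p ratio had a Pearson r of 0.628 with the miR-23 ratio and 0.788 with the miR-27 ratio, without a test since the names share libraries. By CPM miR-24-2-5p was highest in the soleus (481 ± 68.8) and miR-24-1-5p in the brainstem (18.6 ± 3.4). In the pancreas they had 56.1 ± 9.4 and 2.78 CPM.

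**Figure D3:**
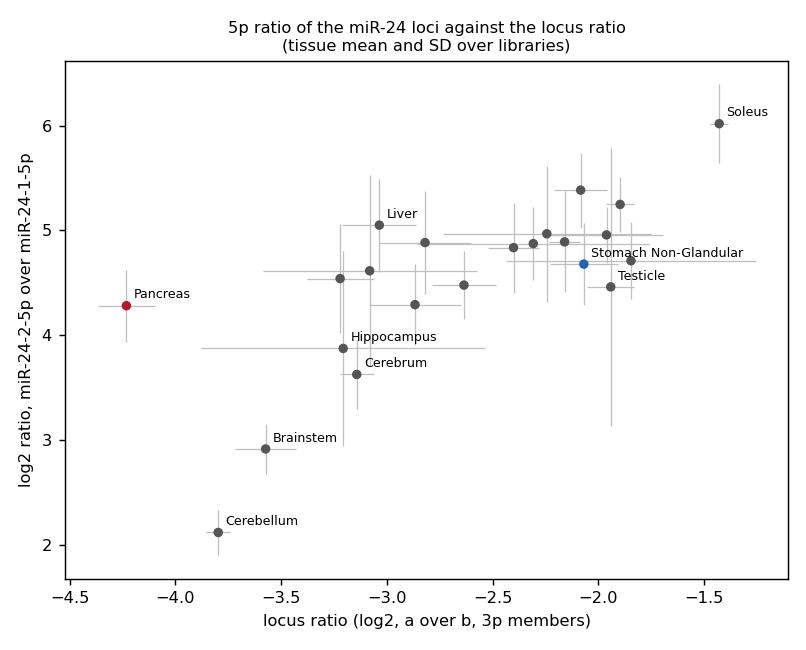
Tissue mean ± SD of the log2 ratio of miR-24-2-5p to miR-24-1-5p (y axis) against the locus ratio from miR-23 and miR-27 (x axis), without whole blood. The cerebellum is lowest on the y axis, at 2.12, while the pancreas is lowest on the x axis, at -4.23, with a 5p ratio of 4.28.

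RNA quality moved with the miR-23 ratio and the locus ratio. Over 205 libraries with a RIN, centred within their tissue, the miR-23 ratio and RIN had a Pearson r of 0.598 and a Spearman rho of 0.431 (permutation within tissue, p = 1e-05 for each, the smallest that 100000 resamples give, adjusted p = 6e-05 and 9e-05 over 18 relations), with r above 0 in 19 of 22 tissues and 0.532 without the 2 libraries farthest in RIN. Without the 10 libraries nearer to another tissue r was 0.352 and rho 0.307 (adjusted p = 0.000315 and 0.0006), with r above 0 in 16 of 20 tissues. For the locus ratio r was 0.517 and rho 0.283 (adjusted p = 6e-05 and 0.00117, permutation), with r above 0 in 19 of 22 tissues, and without those 10 libraries r was 0.252 and rho 0.212 (adjusted p = 0.00482 and 0.0237, permutation), with r above 0 in 15 of 20. For the miR-27 ratio r was 0.264 and rho 0.0571 (adjusted p = 0.0568 and 0.762, permutation), and r was -0.00383 without those 10. The level of miR-23b-3p had an r of -0.504 (-0.235 without those 10), and that of miR-23a-3p 0.160 (0.0533 without them).

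The pancreas had the lowest RIN of any tissue, and the part of RNA quality in its low miR-23 and locus ratios was not tested. In 12 libraries of other tissues with a RIN of 6.0 to 6.9 the miR-23 ratio was -1.98 to 0.31 and the locus ratio -3.59 to -1.43, all above the pancreas range of -3.18 to -2.51 and -4.49 to -4.03. Within the pancreas, over its 10 libraries, r with RIN was 0.389 for the miR-23 ratio, -0.595 for the miR-27 ratio and -0.0702 for the locus ratio, given without a test.

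**Figure D4:**
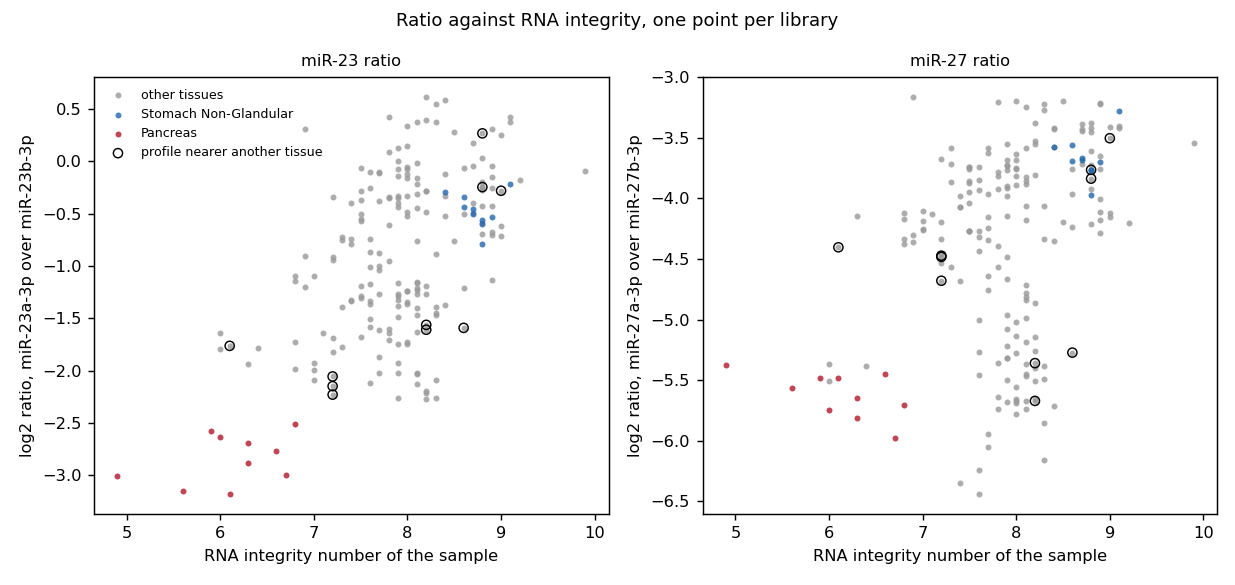
Log2 ratio of the a to the b member of miR-23 (left) and miR-27 (right) on the y axes against the RNA integrity number on the x axes, with 1 point per library. Pancreas libraries (RIN 4.9 to 6.8) lie at a miR-23 ratio of -3.18 to -2.51, below the 12 libraries of other tissues with a RIN under 7, which lie at -1.98 to 0.31.

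The reads of each 3p name were next described by sequence, since ends that are trimmed or extended can hide the base that tells the loci apart. They are DNA copies and are written with T, and the bases added or removed relative to the RefSeq sequence stand at the 3′ end. The sequences below are the most counted of each name, shown because 4 of the 5 are not the RefSeq form, and base 19 is the base that tells a from b.
miR-23a-3p, 52.2% of its counts: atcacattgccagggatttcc
miR-23b-3p, 40.1% of its counts: atcacattgccagggattaccact
miR-27a-3p, 48.5% of its counts: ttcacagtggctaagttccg
miR-27b-3p, 50.3% of its counts: ttcacagtggctaagttctg
miR-24-3p, 37.0% of its counts: tggctcagttcagcaggaacagt
The leading forms of miR-23b-3p and miR-24-3p end in a T that their hairpins do not hold at that place, and those of the miR-27 members are 1 base shorter than the RefSeq form. The RefSeq form took 19.9% of miR-23b-3p, 14.4% of miR-27a-3p, 32.1% of miR-27b-3p and 15.4% of miR-24-3p. These shares leave out 14 runs of 1 sequencing lane, in which 54.3% to 57.2% of the counts of the 3p members had a moved 5′ end, against 0.233% to 1.95% in the other 430 runs, a choice made after the values were seen.

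The same form led in all 23 tissues for 4 of the 3p members. For miR-24-3p the leading form was the 20-base tggctcagttcagcaggaac in DRG, duodenum and whole blood. In the pancreas the leading form of miR-24-3p took 56.7% ± 6.1 of its counts, the largest share of any tissue, against 37.4% ± 3.3 in the non-glandular stomach and 20.4% ± 5.2 in whole blood. The 20-base form of miR-27b-3p took 68.0% ± 3.7 in the pancreas, 54.5% ± 1.9 in the non-glandular stomach and 82.8% ± 2.7 in whole blood.

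Added T ends differed by member and tissue. Over all libraries they made up 6.56% of miR-23a-3p and 45.5% of miR-23b-3p, whose RefSeq forms differ by a single base, 14.6% of miR-27a-3p and 9.83% of miR-27b-3p, and 42.3% of miR-24-3p. The pancreas had the highest share for miR-24-3p, at 60.8% ± 5.8 (SD, n = 10), and for miR-27a-3p, at 23.8% ± 3.8, against 42.7% ± 3.1 and 12.4% ± 0.8 in the non-glandular stomach. The liver had the highest share for miR-23b-3p, at 62.1% ± 2.6, and for miR-27b-3p, at 18.4% ± 1.7, where the pancreas had 45.8% ± 1.0 and 7.79% ± 1.0. With only the most counted form of each name, the locus ratio was -4.29 in the pancreas and -1.89 in the non-glandular stomach.

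**Figure D5:**
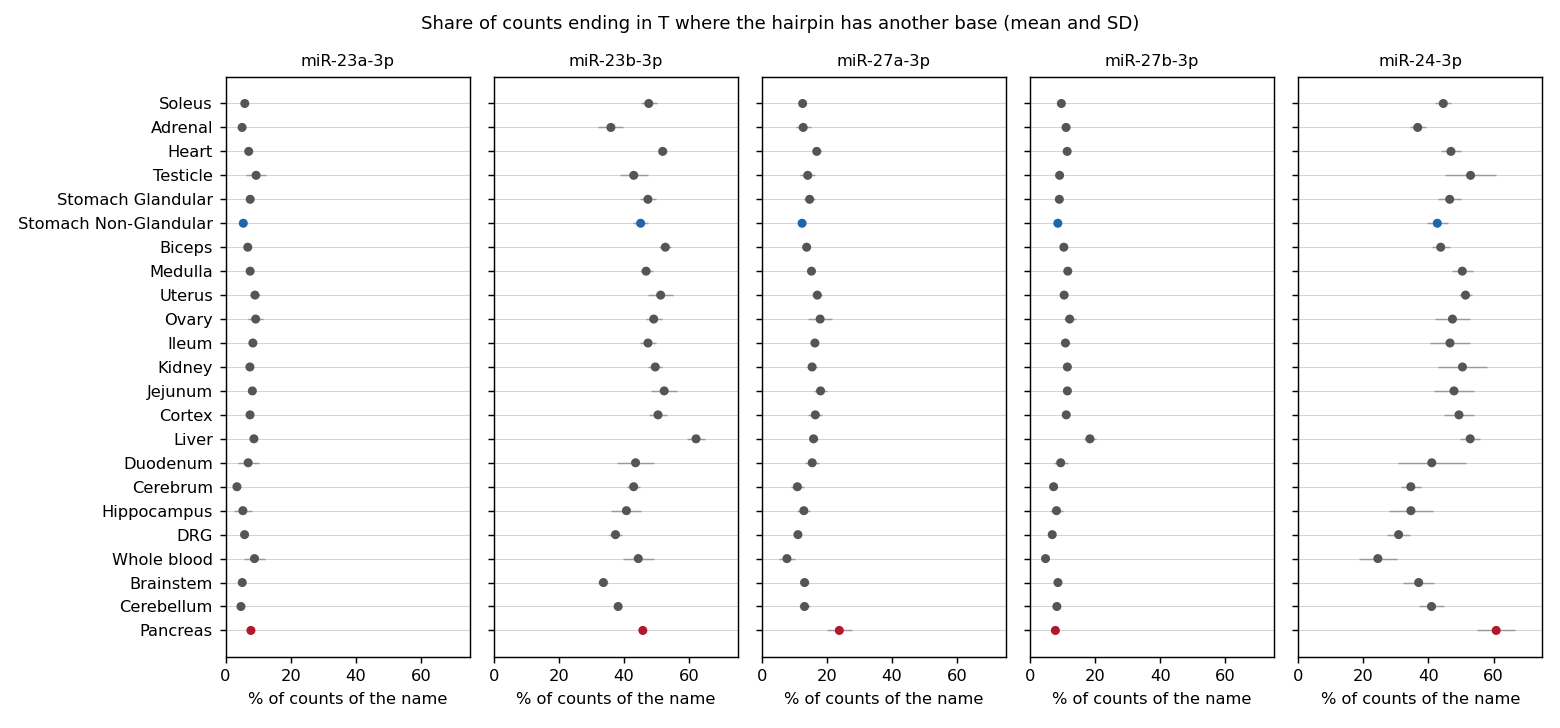
Share of the counts of each 3p member that end in a T not held by the hairpin (x axes, percent) in each tissue (y axis), as mean and SD over libraries. The pancreas is highest for miR-27a-3p and miR-24-3p, at 23.8% and 60.8%, and the liver for miR-23b-3p and miR-27b-3p, at 62.1% and 18.4%.

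Because the loci are told apart by 1 base, the counts of the 2 bases that neither member has at that position give the scale of misreading. Among 20-base miR-27 reads over all libraries, A at position 19 was at 0.0243% and G at 0.116% of the count with the b member's T. The a member's C was at 5.09%. In the pancreas C was at 1.58%, G at 0.124% and A at 0.0182%, and in whole blood C was at 1.44%, against 7.49% in the non-glandular stomach. The a member was thus above both other bases in the tissues where it was lowest. How often T itself is read as C was not measured.

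Markers of cell types that whole tissue can hold were summed in each library. The endothelial miR-126 names were at 3007 to 5754 CPM in the pancreas and 774 to 1504 in the non-glandular stomach, with the highest sums in the heart (21204 to 27816). Nearly all of the sum lay on the rat names miR-126a-3p and miR-126a-5p. Smooth muscle markers were at 772861 to 881388 CPM in the non-glandular stomach and 13796 to 22589 in the pancreas. Erythroid markers were at 79.1 to 293 CPM in the pancreas and 8.3 to 28.7 in the non-glandular stomach, against 9750 to 16521 in whole blood, which had the lowest level of each 3p member. Leukocyte markers were at 350 to 2126 CPM in the pancreas and 106 to 251 in the non-glandular stomach. These directions too depend on the total. With miR-143-3p left out of it, the endothelial names were at 3055 to 5886 CPM in the pancreas and 5627 to 7512 in the non-glandular stomach, leukocyte markers at 356 to 2175 and 817 to 1283, and erythroid markers at 80.6 to 297 and 54.6 to 172 CPM.

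The liver marker miR-122-5p was at 0 to 19.1 CPM in the pancreas and 0.1 to 2.8 in the non-glandular stomach, against 25926 to 40363 in the liver. Striated muscle markers were at 21.7 to 188 CPM in the pancreas and at 548 to 6579 in the non-glandular stomach, whose median of 1399 was exceeded in the glandular stomach, heart, soleus and biceps (268802 to 327956). With miR-143-3p left out of the total they were at 3910 to 28625 CPM in the non-glandular stomach and 286568 to 340182 in the biceps. Nervous tissue markers were at 11.7 to 67.3 CPM in the pancreas and 10.5 to 35.0 in the non-glandular stomach, and intestine markers at 1226 to 1840 and 220 to 1446 CPM, against 520651 to 642172 in the jejunum. The part of these cell types in the ratios was not tested.

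The miRNAs whose tissue pattern was most like that of each locus were taken from 378 single names with a mean of at least 10 CPM, by Pearson r of tissue means of log2(CPM + 1) over 23 tissues, as a description. For the a locus these were miR-199a-3p (r = 0.807), miR-574-3p (0.805), miR-22-3p (0.795), miR-126a-3p (0.785) and miR-126a-5p (0.775), and without whole blood these r were between 0.414 and 0.587. For the b locus they were miR-574-3p (0.903, and 0.799 without whole blood), miR-345-5p (0.870), miR-455-3p (0.821), miR-99a-5p (0.815) and miR-345-3p (0.801). The a and b loci had an r of 0.784 with each other, and of 0.542 without whole blood.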

How the data were processed

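Total RNA from rat tissues was made into TruSeq small RNA libraries and sequenced. The deposited values are raw counts of reads per miRNA name and per isomiR sequence for each run. Per the study's methods the authors trimmed adaptors and dropped reads that were short or held an ambiguous base (cutadapt 1.4.1 in the submitters' processing notes), collapsed identical reads and aligned them with miRDeep2 to miRBase precursors of rat, then of other species, with composite names for reads on several precursors. Ambiguous reads, added 3′ bases and the absence of molecular identifiers can therefore change a count, and values cover reads and not molecules.

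Here 444 of 458 runs were summed to 215 libraries, leaving out 14 that repeat a lane of the same library. Every column of the tables named 1 run. Members, lists and tests were chosen with earlier results of these data known. Described with values were all entries found by name with at least 10 CPM in a tissue, the 5 most similar names per locus and the marker names. Ratios were tested with permutation tests in Python 3.11.15 with NumPy 2.4.6, pandas 2.3.3 and SciPy 1.17.1 (100000 resamples for 10 against 10 libraries, exact otherwise). Counts were tested with edgeR 4.0.16 in R 4.3.3 (filterByExpr, DRG summed to its 2 pools, 207 samples), and with DESeq2 1.42.0 as an alternative. Figures were drawn with matplotlib 3.10.9. Ages, sexes and RIN are from the labels, and the sequences are RefSeq's, of GRCr8. No coordinate comes from the authors' files.

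On simulated pancreas counts, edgeR recovered 93.4% of the tested names changed 4-fold and 30.3% of those changed 2-fold, among 1110 names tested, with 3 false calls in 968. Apart from the changed names, the simulation gave all tissues the same mean profile, and all names the same dispersion. It therefore cannot measure false calls that come from scaling between tissues of different composition. Same-numbered libraries are from the same rat, so the rat pairs tissues. Deviations of a rat in the locus ratio had a median r of 0.0285 over 171 pairs of tissues, 73 of them over 0.1.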

Additional observations from a re-analysis of the deposited data

Results flagged for a closer look

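In 13 of 76 groups of libraries the highest or lowest library stood apart from the others by Dixon's criterion at the 95% level, which chance meets in about 1 of 20 groups. Of these, 9 came from libraries whose whole profile is nearer to another tissue. The adrenal library of rat 8 had a miR-23 ratio of -2.23 (others -0.24 to 0.42), a miR-27 ratio of -4.68 (others -3.76 to -3.22) and a locus ratio of -3.45 (others -1.92 to -1.46). The duodenum library of rat 11 had a miR-23 ratio of 0.27 (others -2.09 to -1.56) and a locus ratio of -1.78 (others -3.64 to -2.92). The ovary library of rat 11 had a miR-23 ratio of -2.05 (others -0.57 to -0.06), a miR-27 ratio of -4.47 (others -3.95 to -3.76) and a locus ratio of -3.26 (others -2.26 to -1.91). The uterus library of rat 8 had a miR-23 ratio of -1.76 (others -0.59 to -0.27).

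The other 4 came from libraries in place. The cerebellum of rat 11 had a miR-27 ratio of -5.74 (others -5.51 to -5.26) and the jejunum of rat 11 one of -3.74 (others -4.31 to -4.06). The non-glandular stomach of rat 8 had 555 CPM of miR-23a-3p (others 324 to 440) and 1371 CPM of miR-27a-3p (others 688 to 1006), while its locus ratio of -1.95 lay within the range of that tissue.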

How the results depend on the processing

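By tissue means, the pancreas had the lowest miR-23 and locus ratio, the soleus the highest of all 3 ratios and whole blood the lowest miR-27 ratio in every setting tried. These were all deposited runs, the flow cell with every library alone, the other flow cells, no runs of 1 lane (chosen after the data were seen), a pseudocount of 1, the most counted isomiR of each name, no libraries nearer to another tissue, the rat as a block, and each rat left out. The pancreas was called against 21 tissues in each, except under the rat block (exact sign-flip test), where 18 were called and the 3 lost were tissues with 5 rats, which cannot go under p = 0.0625. The rat block called 129 pairs for miR-23, 142 for miR-27 and 139 for the locus ratio, of 229. By the same floor, only the 171 pairs of tissues that share 10 rats could be called. Without each rat in turn the pairs called were 161 to 177, 178 to 194 and 172 to 183, the tissues that differed from the pancreas 21 to 21 and from the non-glandular stomach 14 to 15, the sex calls of the locus ratio 0 to 0, the edgeR member calls 70 to 79 and the sex calls of members 0 to 4, the 4 without rat 7. The 0 sex calls of the locus ratio carry the same limit of small groups as the main test. The most counted isomiR reversed 1 pair, brainstem and cerebrum for miR-23 (-1.48 and -1.24, and -0.76 and -0.89 with that isomiR).

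For members, TMM scaling gave 76 calls, 61 of them shared in the same direction, DESeq2 78 with 56 shared, no filter 57, and leaving out the 10 libraries 89. The rat block gave 77 against 79 without it, of 110. The share of calls that were higher was 56.6% with edgeR and 47.4% with DESeq2. Member sex calls were 2 with TMM scaling, 3 with DESeq2 and 1 without the 10 libraries. miR-27b-3p in whole blood reversed to -0.93 with TMM scaling and -0.37 with DESeq2, and in the liver DESeq2 reversed miR-23b-3p (0.61 to -0.39) and miR-27b-3p (0.58 to -0.43). With miR-24-3p in the cerebrum these made 4 opposite calls by DESeq2, and 11 calls had the opposite sign, and the cause was not tested. In the pancreas miR-24-3p lost its call with DESeq2 (0.20), without a filter and without 7 of the rats, and miR-23a-3p gained one with TMM scaling (-0.38), DESeq2 (-0.48) and without the 10 libraries (-0.34), as did miR-27a-3p with TMM scaling (0.40), without those libraries (0.46), without DRG (0.46, and 0.45 with the rat block) and without rat 2 or rat 4. Depth limits miR-24-1-5p, miR-27a-5p and both 5p names of miR-23.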
